A study of Mus musculus with 18 samples.

Results

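The difference between Nrf1-KO and WT fibroblasts after 6 h of carfilzomib (CFZ) was described across all expressed genes. The members were chosen by their labels, as the 3 Nrf1-KO libraries and the 3 WT libraries of that treatment, which make 6 of the 18 RNA-sequencing libraries of the series. Both lines are NIH-3T3, an established line of mouse embryo fibroblasts, and both were given 200 nM CFZ, an irreversible inhibitor of the proteasome, for 6 h. One line is labelled WT, and in the other, Nrf1-KO, Nrf1 had been disrupted with CRISPR/Cas9. Whether the knockout line was a single clone is not given in the sources used here, so an effect of the gene and other differences between the lines cannot be told apart. The 3 WT and 3 Nrf1-KO libraries in DMSO, the vehicle, for which no time is given, were used as the background difference between the lines. The study describes the 3 samples of each group as biological replicates. The protein it calls Nrf1 is the product of Nfe2l1, while the count table uses the symbol Nrf1 for an unrelated gene, that of nuclear respiratory factor 1.
NFE2L1 is a transcription factor of the cap'n'collar family that is held in the membrane of the endoplasmic reticulum (ER) and is normally destroyed by the proteasome. When the proteasome is inhibited, the protein is retrotranslocated by the ATPase p97, freed of its sugars by NGLY1, cut by the protease DDI2 and moved to the nucleus. There it pairs with small MAF proteins on antioxidant response elements and drives the genes of proteasome subunits, a recovery known as the bounce-back response. The same inhibition also engages the heat shock response and the unfolded protein response (UPR), in which the kinase PERK acts through ATF4 and CHOP, the nuclease IRE1 through XBP1, and ATF6 through its own cleaved form.

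The 6 libraries held from 8333148 to 14380452 counted reads, the lowest being the third Nrf1-KO library. Each correlated better with its own group (correlation of log2 levels, 0.9945 to 0.9958) than with any other group (0.97 to 0.9716). Replicates differed by more than sampling noise, with a chi-square per degree of freedom from 1.438 to 2.623. Fibroblast markers summed to between 30600 and 33100 CPM (counts scaled to a common library size with edgeR's TMM method) in WT and between 30100 and 33800 CPM in Nrf1-KO. Of the markers of other cell types, Epcam, Krt8, Krt18, Kdr, Cd3e, Cd79a, Emr1, Adipoq, Plin1, Lep, Cfd, Myod1, Myog, Sox2, Sox10, Rbfox3, Pou5f1 and Esrrb had no read in the 6 libraries. The epithelial list summed to between 128 and 137 CPM in WT and between 57.8 and 62.3 CPM in Nrf1-KO, the leukocyte list to between 0.364 and 1.06 CPM and between 1.08 and 2.32 CPM, and the endothelial, adipocyte, skeletal muscle, neural and pluripotent lists to at most 2.16 CPM in any library.

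Of 11762 genes tested, 7214 differed between the lines at CFZ 6 h with an edgeR adjusted p under 0.05, which is 61.3% of them. Higher in Nrf1-KO were 3593 genes (30.5%) and lower were 3621 (30.8%). At least 2-fold higher were 507 genes (4.31%) and at least 2-fold lower 353 (3%). For 7696 of the 11762 genes the libraries of the lines did not overlap, so separation of the lines was common. The common biological coefficient of variation was 3.13%, and the smallest difference that was called measured 0.0715 on the log2 scale, so small differences were called too. Here and throughout, a difference is the log2 level in Nrf1-KO minus that in WT, tested with edgeR's quasi-likelihood method. The median of the absolute log2 difference was 0.24, and the median difference was 0.0036. Scaling by library size alone moved that median to 0.0705 and made 4384 of the called genes higher and 2829 lower, so that the share of called genes that were higher went from 49.8% to 60.8%.
The lines also differed in DMSO, where 6436 genes were called (54.7%), 3017 higher in Nrf1-KO (25.7%) and 3419 lower (29.1%). The share of calls that were higher was 46.9% there and 57.7% with library size alone. The test of the CFZ 6 h difference minus the DMSO difference, referred to below as the contrast, called 4502 genes (38.3%), 2332 more positive under CFZ (19.8%) and 2170 more negative (18.4%). Of the 507 genes at least 2-fold higher at CFZ 6 h, 409 were also higher in DMSO, and 159 were more positive in the contrast. Of the 353 genes at least 2-fold lower, 249 were also lower in DMSO, and 205 were more negative in the contrast. A further 377 genes were lower in Nrf1-KO in DMSO and higher under CFZ, and 276 were higher in DMSO and lower under CFZ.

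**Figure D1:**
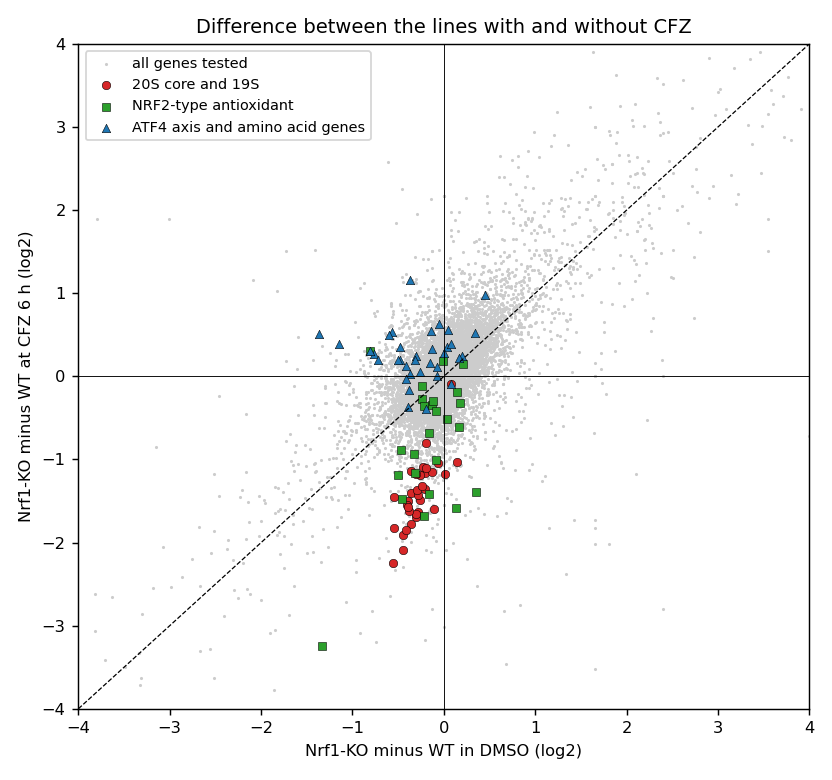
Each point is a gene, placed by its log2 difference between Nrf1-KO and WT in DMSO (x axis) and at CFZ 6 h (y axis), with the dashed line marking equal differences; 98 genes lie outside the axes. The proteasome subunit genes sit below the line at medians of -1.38 (20S core) and -1.45 (19S particle), and most of the ATF4 axis and amino acid genes sit above it.

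Genes of 34 lists of pathways and complexes, which covered 574 genes, were read against those shares. The lists that stood lowest were the proteasome particles, the NRF2-type antioxidant genes, the genes of NFE2L1 processing and the YAP and SRF targets. The lists that stood highest were the p53 targets, the PERK, ATF4 and CHOP axis, the cytosolic heat shock response and the amino acid genes.

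**Figure D2:**
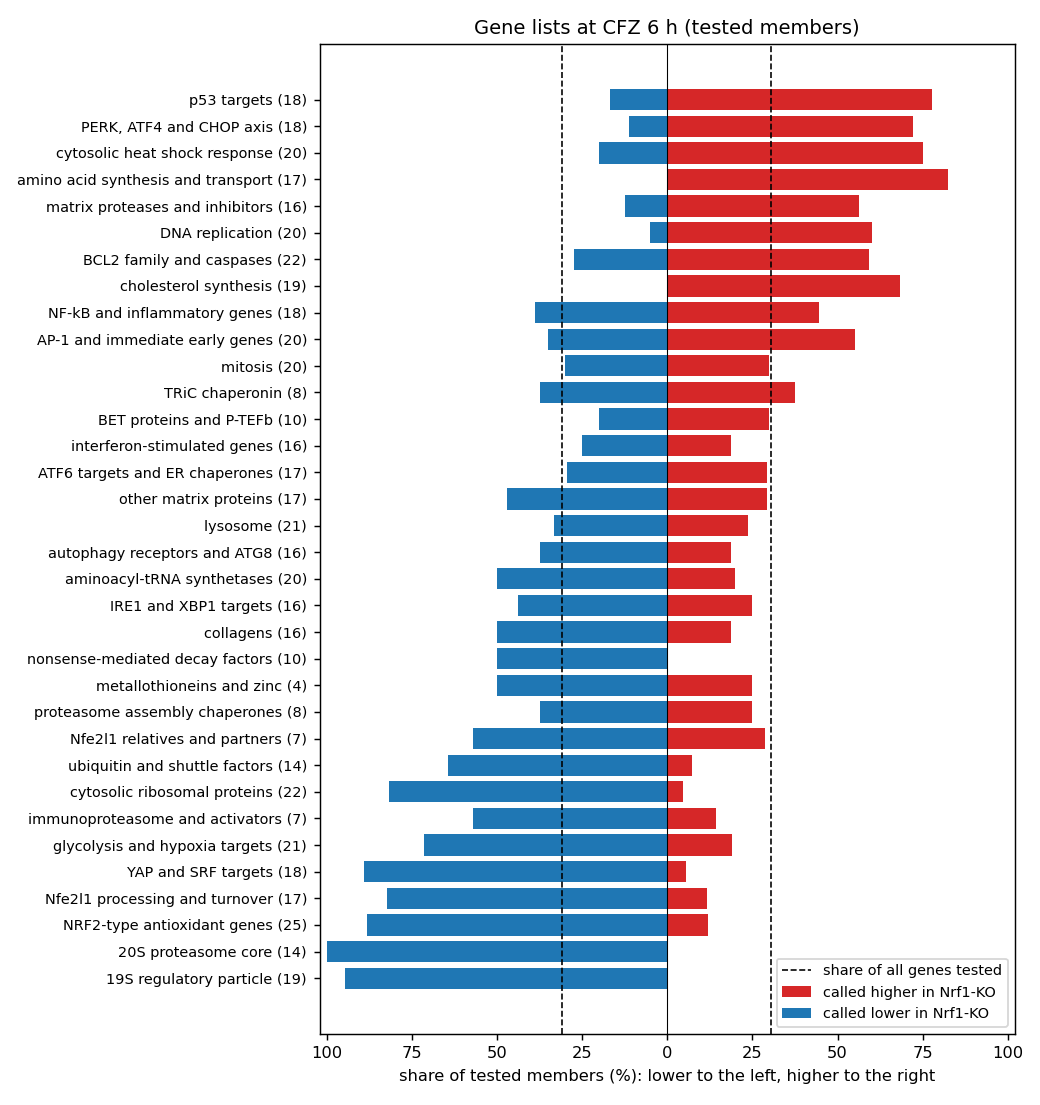
Bars give the share of each list's tested members (number in parentheses) that were lower (left, blue) or higher (right, red) in Nrf1-KO at CFZ 6 h, with lists ordered by their median log2 difference. Dashed lines mark the shares over all genes tested, 30.8% lower and 30.5% higher.

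Nfe2l1 itself, on chromosome 11 of GRCm38 (chr11:96817414-96829968), was measured at 650.4, 648 and 628 CPM in the WT libraries and 414, 416 and 427 CPM in the Nrf1-KO libraries. Its transcript was lower in every Nrf1-KO library but was not absent, and reads on a transcript do not show whether protein is made. The difference was -0.62 (SE 0.033, edgeR adjusted p = 1.14e-16). In DMSO the levels were 457, 437 and 449 CPM in WT and 174, 185 and 181 CPM in Nrf1-KO, a difference of -1.31 (edgeR adjusted p = 1.56e-24), so the lines stood closer under CFZ, with a contrast of 0.70 (SE 0.047, edgeR adjusted p = 1.61e-13).

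The 26S proteasome joins a 20S core, a barrel of alpha and beta rings that holds the proteolytic sites, to a 19S particle that binds, unfolds and feeds in ubiquitin-tagged proteins. All 14 core genes were lower in Nrf1-KO at CFZ 6 h, each by at least 2-fold, with a median log2 difference of -1.38. Psmb3, a beta-ring subunit, stood at 349, 344 and 341 CPM in the WT libraries and 80.7, 83.7 and 78.5 CPM in the Nrf1-KO libraries. That is 4.25-fold lower in Nrf1-KO, the widest gap of the core, at -2.09 (SE 0.039, edgeR adjusted p = 1.82e-28). Psma7, of the alpha ring, stood at 300.3, 305 and 292 CPM in the WT libraries and 76.4, 82.2 and 79.98 CPM in the Nrf1-KO libraries, a difference of -1.91 (SE 0.043, edgeR adjusted p = 2.46e-26). Psmb5, the chymotrypsin-like subunit that CFZ binds, stood at 85.3, 83.6 and 76.4 CPM in the WT libraries and 34.3, 37.4 and 40.6 CPM in the Nrf1-KO libraries, a difference of -1.14 (SE 0.067, edgeR adjusted p = 1.17e-15). Every Nrf1-KO library lay far below every WT library for Psma7, and by less for Psmb5. The smallest gap of the core was that of Psma2, at 196, 202 and 204 CPM in the WT libraries and 95.5, 100.6 and 97.0 CPM in the Nrf1-KO libraries. It was 2.05-fold lower in Nrf1-KO, at -1.04 (SE 0.043, edgeR adjusted p = 1.07e-19), and the lines did not overlap for any of these 4 genes. Psmb7 was also lower, at -1.17, but 11.8% of its exonic bases lie under exons of a gene on the opposite strand, and the use of strand in counting is not given.
Of the 19 genes of the 19S particle, 18 were lower, 17 of them by at least 2-fold, with a median of -1.45. Psmd3, a lid subunit, stood at 694, 675 and 664 CPM in the WT libraries and 143, 144 and 144 CPM in the Nrf1-KO libraries. It had the widest gap of either particle, 4.72-fold, at -2.24 (SE 0.032, edgeR adjusted p = 4.70e-31). Psmd11, another lid subunit, stood at 503, 515 and 505 CPM in the WT libraries and 141, 139 and 142 CPM in the Nrf1-KO libraries, a difference of -1.85 (SE 0.034, edgeR adjusted p = 1.38e-28). Psmd12, also of the lid, stood at 352, 359 and 347 CPM in the WT libraries and 122, 113 and 117 CPM in the Nrf1-KO libraries, a difference of -1.59 (SE 0.038, edgeR adjusted p = 7.19e-26). For these 3 lid genes the lines were well apart. Psmc4, an ATPase of the base, stood at 293, 282 and 286 CPM in the WT libraries and 88.4, 93.4 and 90.9 CPM in the Nrf1-KO libraries, a difference of -1.66 (SE 0.035, edgeR adjusted p = 4.22e-27). The lines did not overlap for Psmc4 either. Shfm1, the smallest lid subunit, was the exception, at 121, 111 and 114 CPM in the WT libraries and 107, 105 and 113 CPM in the Nrf1-KO libraries. Its libraries overlapped, and the difference was -0.10 (SE 0.052, edgeR adjusted p = 0.116).
In DMSO the same genes differed by much less, with medians of -0.30 for the core (13 of 14 lower) and -0.29 for the 19S particle (16 of 19 lower). Psmd2, a scaffold subunit of the base, was 363, 362 and 365 CPM in WT and 407, 405 and 396 CPM in Nrf1-KO in DMSO, where Nrf1-KO was the higher line at 0.15 (edgeR adjusted p = 1.20e-04). Under CFZ it stood at 812, 819 and 813 CPM in the WT libraries and 397, 395 and 401 CPM in the Nrf1-KO libraries, a difference of -1.03 (SE 0.03, edgeR adjusted p = 1.87e-23). Psmd2 lies on chromosome 16, whose genes stood higher in Nrf1-KO as a whole. The contrast was more negative for 14 of 14 core genes and 18 of 19 genes of the 19S particle, beside 18.4% of all genes tested.

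**Figure D3:**
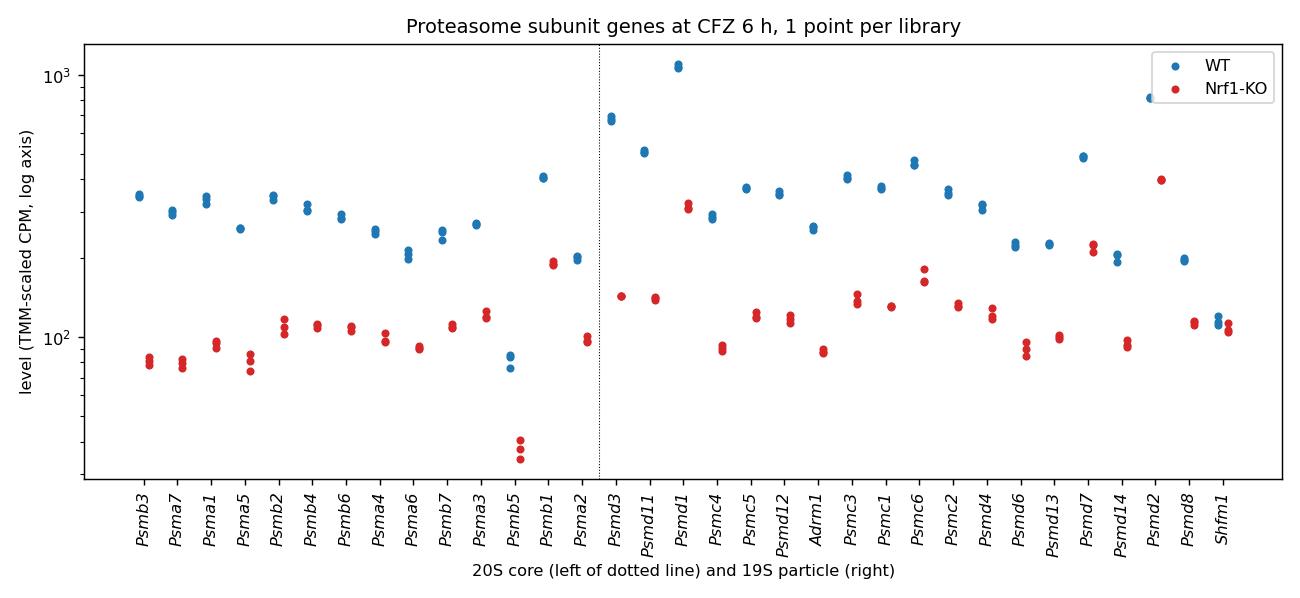
Levels of the 33 tested proteasome subunit genes at CFZ 6 h in TMM-scaled CPM on a log axis, with 1 point per library, WT in blue and Nrf1-KO in red. The WT and Nrf1-KO points are apart for every gene but Shfm1, where they overlap. Over all 11762 genes tested, 7696 had no overlap between the lines.

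NFE2L1 binds antioxidant response elements, so the windows around the transcription starts (250 bases before to 50 after, RefSeq, GRCm38.p6) were searched on both strands for TGACNNNGC. Of 28 windows of 26 proteasome subunit genes, 5 held it (17.9%), against 12.4% of 32851 windows of all genes and 14.4% of the windows of genes tested. The share was 26.7% (8 of 30) for the NRF2-type list. It was 36.8% (7 of 19) for the amino acid list and 21.1% (4 of 19) for the PERK, ATF4 and CHOP axis. These lists hold few windows. Among genes tested it was 17.6% where the contrast was called more negative and 13.0% where it was called more positive. Where the contrast was not called it was 13.9%. Whether these shares differ was not tested. The windows of the subunit genes Psmb5 and Psmb6 and of Vcp, which encodes the ATPase p97 and is not a subunit, are shown 5′ to 3′ on the gene's strand with the match in capitals, starting at positions -47, -9 and -114 from the start. A match on the opposite strand appears as its reverse complement, here and further on. A match is a run of letters and does not show that a factor binds there.
Psmb5, chr14:54617946-54618245, strand -: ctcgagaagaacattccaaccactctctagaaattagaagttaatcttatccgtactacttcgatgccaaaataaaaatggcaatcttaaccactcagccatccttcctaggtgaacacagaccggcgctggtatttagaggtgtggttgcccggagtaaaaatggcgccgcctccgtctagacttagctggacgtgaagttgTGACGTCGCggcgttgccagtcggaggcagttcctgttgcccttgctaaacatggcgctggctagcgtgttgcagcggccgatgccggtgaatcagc
Psmb6, chr11:70525107-70525406, strand +: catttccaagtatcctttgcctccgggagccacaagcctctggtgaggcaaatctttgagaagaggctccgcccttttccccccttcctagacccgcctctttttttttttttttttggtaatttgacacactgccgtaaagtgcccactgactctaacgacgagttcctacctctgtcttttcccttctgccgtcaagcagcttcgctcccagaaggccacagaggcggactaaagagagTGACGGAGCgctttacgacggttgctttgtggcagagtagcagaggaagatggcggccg
Vcp, chr4:43000458-43000757, strand -: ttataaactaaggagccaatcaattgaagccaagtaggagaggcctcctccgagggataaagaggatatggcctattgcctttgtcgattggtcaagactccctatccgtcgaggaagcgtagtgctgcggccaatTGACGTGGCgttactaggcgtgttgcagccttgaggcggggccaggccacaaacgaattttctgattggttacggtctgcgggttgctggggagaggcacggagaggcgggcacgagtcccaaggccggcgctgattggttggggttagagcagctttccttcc
Some proteasome genes share a start region with a neighbour transcribed the other way. Within 1000 bases there were 6 such neighbours, of which 5 were tested. Of these, 4 were lower in Nrf1-KO and 1 was not called, where 30.8% of all genes tested were lower. Ss18l1, 76 bases from Psma7, differed by -0.88 (SE 0.12, edgeR adjusted p = 1.33e-07), and Ftsj3, 75 bases from Psmc5, by -0.60 (SE 0.036, edgeR adjusted p = 1.99e-15). Dnajc2, 32 bases from Psmc2 and with it on chromosome 5, differed by -0.52 and Tbp, beside Psmb1, by -0.15. Mrpl32, 75 bases from Psma2, differed by -0.10 (SE 0.085, edgeR adjusted p = 0.309), while Psma2 itself was 2.05-fold lower.

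The helpers of the proteasome did not all follow the particles. Of 8 assembly chaperone genes tested, 3 were lower (37.5%), 2 higher (25%) and 3 not called. These are near the shares over all genes tested, 30.8% lower and 30.5% higher. Pomp, which matures the core, stood at 132, 121 and 121 CPM in the WT libraries and 65.8, 70.2 and 64.99 CPM in the Nrf1-KO libraries, a difference of -0.89 (SE 0.053, edgeR adjusted p = 1.60e-15), from a DMSO level that was higher in Nrf1-KO (0.33). Psmd5, which assembles the base, differed by -0.9979 (SE 0.04, edgeR adjusted p = 5.04e-20). Psmg1 was higher, at 13.7, 12.4 and 12.1 CPM in the WT libraries and 14.8, 15.8 and 20.02 CPM in the Nrf1-KO libraries, a difference of 0.37 (SE 0.098, edgeR adjusted p = 0.00157), and Psmg1 and Psmd9, the other higher one (0.17), lie on chromosomes 16 and 5. The call for Psmd9 was lost without the first WT library (adjusted p = 0.109) or the third Nrf1-KO library (adjusted p = 0.0906), and 25.5% of its exonic bases lie under another gene's exons. Pomp also lies on chromosome 5. Without the genes of chromosomes 5, 15 and 16, 0 of 4 assembly genes were higher and 1 was lower. Of the 7 tested activators, inhibitors and immunoproteasome subunits, 4 were lower (57.1%) and 1 was higher (14.3%). The higher one, Psme1 (edgeR adjusted p = 0.049), lost its call with no filter and with any single replicate of either line left out. Psme4, the nuclear activator PA200, stood at 623, 613 and 614 CPM in the WT libraries and 232, 230.1 and 230.3 CPM in the Nrf1-KO libraries, a difference of -1.42 (SE 0.034, edgeR adjusted p = 6.44e-26). Psmb9, an immunoproteasome subunit, was close to the limit of detection at between 0.959 and 2.55 CPM, and its difference was -0.44 (SE 0.28, edgeR adjusted p = 0.185).

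The genes that process and turn over NFE2L1 were mostly lower, at 14 of 17, with 2 higher and a median of -0.42. Vcp, which encodes p97, stood at 1299, 1285 and 1293 CPM in the WT libraries and 455, 450.1 and 427 CPM in the Nrf1-KO libraries. The gap was 2.91-fold, at -1.54 (SE 0.039, edgeR adjusted p = 2.85e-25), and in DMSO it was -0.44 (edgeR adjusted p = 2.44e-11). Nploc4, a p97 cofactor, stood at 498, 506 and 501 CPM in the WT libraries and 168, 161 and 172 CPM in the Nrf1-KO libraries, a difference of -1.59 (SE 0.04, edgeR adjusted p = 2.44e-25). Ufd1l, its partner on chromosome 16, differed by -0.90, and Ngly1, which removes the sugars, by -0.62. Ddi2, the protease that cuts NFE2L1, was higher in Nrf1-KO, at 20.5, 19.9 and 18.1 CPM in the WT libraries and 27.1, 28.2 and 26.98 CPM in the Nrf1-KO libraries, a difference of 0.49 (SE 0.071, edgeR adjusted p = 4.23e-07). Btrc, part of a ubiquitin ligase, was also higher (0.18), a call that was lost in 5 of the alternatives.
Of 7 relatives and partners of NFE2L1, 4 were lower (57.1%) and 2 higher (28.6%). Keap1, the sensor that holds NRF2 in check, stood between 86.0 and 94.9 CPM in the WT libraries and at 45.2, 42.5 and 46.3 CPM in the Nrf1-KO libraries, a difference of -1.02 (SE 0.047, edgeR adjusted p = 2.72e-18). In DMSO its lines did not differ past the threshold (0.02, edgeR adjusted p = 0.727). Nfe2l2, which encodes NRF2, was higher, at 0.24 (SE 0.035, edgeR adjusted p = 5.25e-07), and was so in DMSO as well (0.38). Mafg, a small MAF partner, was lower, at -0.54 (SE 0.058, edgeR adjusted p = 1.54e-09), and Mafk, another, on chromosome 5, was higher, at 0.28 (SE 0.048, edgeR adjusted p = 6.67e-06).
Among 14 genes of ubiquitin and its shuttles, 9 were lower (64.3%), 1 was higher (7.14%) and 4 were not called. Ubb, a polyubiquitin gene, stood at 497, 493 and 463 CPM in the WT libraries and 449, 452 and 508 CPM in the Nrf1-KO libraries. Its libraries overlapped, at -0.048 (SE 0.045, edgeR adjusted p = 0.369). Zfand2a, an arsenite-inducible proteasome adaptor on chromosome 5, stood at 243, 238 and 238 CPM in the WT libraries and 131, 135 and 137 CPM in the Nrf1-KO libraries, a difference of -0.84 (SE 0.035, edgeR adjusted p = 1.49e-19), although in DMSO it was higher in Nrf1-KO (0.33). Usp14, the deubiquitinase of the 19S particle, differed by -0.67, with 26.0% of its exonic bases under another gene's exons. Of 16 autophagy receptors and ATG8 genes, 6 were lower (37.5%) and 3 higher (18.8%), beside 30.8% and 30.5% over all genes tested. Sqstm1, which encodes the receptor p62, stood at 2916, 2757 and 2754 CPM in the WT libraries and 1457, 1513 and 1588 CPM in the Nrf1-KO libraries, a difference of -0.89 (SE 0.035, edgeR adjusted p = 2.86e-20), with 17.3% of its exonic bases under exons of Mrnip. Gabarapl1 stood at 277, 289.7 and 276 CPM in the WT libraries and 106, 111 and 117 CPM in the Nrf1-KO libraries, a difference of -1.34 (SE 0.048, edgeR adjusted p = 3.06e-21), and 28.3% of its exonic bases lie under another gene's exons.

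NRF2-type antioxidant genes supply glutathione, thioredoxin and NADPH and carry the same elements that NFE2L1 binds. Of 25 tested, 22 were lower and 3 higher, with a median of -0.61, beside -0.16 in DMSO. The contrast was more negative for 20 and more positive for 2, beside 18.4% and 19.8% of all genes tested. Gsr, glutathione reductase, stood at 269, 277 and 276 CPM in the WT libraries and 88.3, 85.4 and 82.5 CPM in the Nrf1-KO libraries, a difference of -1.68 (SE 0.044, edgeR adjusted p = 8.28e-25). Srxn1, sulfiredoxin, stood at 444, 432 and 424 CPM in the WT libraries and 144, 142 and 148 CPM in the Nrf1-KO libraries. It was 2.99-fold lower, at -1.58 (SE 0.036, edgeR adjusted p = 2.31e-26), although in DMSO it was higher in Nrf1-KO (0.14). Gclm, which modifies the enzyme that begins glutathione synthesis, stood at 355, 351 and 352 CPM in the WT libraries and 132, 124 and 124 CPM in the Nrf1-KO libraries, a difference of -1.48 (SE 0.036, edgeR adjusted p = 1.06e-25). The lines were far apart for Gsr, Srxn1 and Gclm. Gclc, its catalytic partner, was higher, at 0.19 (SE 0.04, edgeR adjusted p = 1.32e-04). Prdx1, a peroxiredoxin, differed by -1.01 and Hmox1, heme oxygenase, by -0.89, while Nqo1, a quinone reductase widely used as an NRF2 readout, differed by -0.28 (SE 0.037, edgeR adjusted p = 1.47e-07). The widest gap of the list was that of Mgst1, but at 2.05, 2.11 and 1.73 CPM in the WT libraries and 0.293, 0.232 and 0 CPM in the Nrf1-KO libraries it rests on few reads. The other gene that was higher, beside Gpx1, was Slc7a11, the cystine transporter, at 214, 206 and 226 CPM in the WT libraries and 286, 265 and 246 CPM in the Nrf1-KO libraries, a difference of 0.31 (SE 0.05, edgeR adjusted p = 3.39e-06). Slc7a11 also belongs to the amino acid list.

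ATF4 drives genes of amino acid supply and, with CHOP (Ddit3), genes of feedback and cell death. Of 18 tested genes of the PERK, ATF4 and CHOP axis, 13 were higher in Nrf1-KO under CFZ, 2 were lower and 3 were not called, with a median of 0.26. In DMSO the order was the opposite, with 12 lower, 3 higher and a median of -0.34, beside 29.1% lower and 25.7% higher over all genes tested. The contrast was more positive for 13 and more negative for 1, beside 19.8% and 18.4% of all genes tested. Atf4 itself, on chromosome 15, stood at 816, 819.6 and 813 CPM in the WT libraries and 952, 963 and 992 CPM in the Nrf1-KO libraries, a difference of 0.25 (SE 0.034, edgeR adjusted p = 1.90e-07), near that in DMSO (0.20), and its contrast was 0.046 (SE 0.048, edgeR adjusted p = 0.479).
Atf3, a stress-induced repressor, stood at 157, 143 and 146 CPM in the WT libraries and 205, 210 and 224 CPM in the Nrf1-KO libraries. The 3 Nrf1-KO libraries were all the higher ones, at 0.51 (SE 0.044, edgeR adjusted p = 1.09e-11). In DMSO it stood at 7.51, 8.44 and 7.96 CPM in WT and 3.09, 3.06 and 3.08 CPM in Nrf1-KO, so the lines changed order, with a contrast of 1.88 (SE 0.14, edgeR adjusted p = 1.29e-12). Ddit3 stood at 126, 119 and 126 CPM in the WT libraries and 182, 175 and 179.5 CPM in the Nrf1-KO libraries, a difference of 0.53 (SE 0.041, edgeR adjusted p = 1.13e-12), beside -0.57 in DMSO. Both genes thus had the higher levels in Nrf1-KO under CFZ and in WT in DMSO. Trib3, a pseudokinase that restrains this branch, stood at 159, 157 and 152 CPM in the WT libraries and 203, 203 and 207 CPM in the Nrf1-KO libraries, a difference of 0.39 (SE 0.035, edgeR adjusted p = 3.33e-11). Its DMSO levels were 104, 112 and 111 CPM in WT and 48.1, 49.4 and 49.6 CPM in Nrf1-KO, and the contrast was 1.54 (SE 0.052, edgeR adjusted p = 1.29e-20).
Chac1, which degrades glutathione, had the widest gap of the axis, at 91.9, 83.6 and 81.5 CPM in the WT libraries and 198, 190.4 and 182 CPM in the Nrf1-KO libraries. It was 2.23-fold higher, at 1.15 (SE 0.043, edgeR adjusted p = 7.07e-21), with no overlap. Ppp1r15a (GADD34), which reverses the phosphorylation of eIF2alpha, stood at 93.3, 87.2 and 88.3 CPM in the WT libraries and 132, 139 and 146 CPM in the Nrf1-KO libraries, a difference of 0.63 (SE 0.043, edgeR adjusted p = 6.19e-14). In DMSO its lines did not differ past the threshold (-0.054, edgeR adjusted p = 0.512). Ifrd1, a transcript under the same translational control, differed by 0.22 (SE 0.039, edgeR adjusted p = 1.40e-05), and its contrast was 0.054 (SE 0.059, edgeR adjusted p = 0.502). Stc2, a secreted ATF4 target, differed by 0.98 (SE 0.085, edgeR adjusted p = 1.56e-11). Cebpb and Nupr1 were lower (-0.37 and -0.16), and neither call held in every alternative, with DESeq2 giving an adjusted p of 0.104 for Cebpb and library size alone one of 0.0885 for Nupr1. For Cebpb 20.7% of the exonic bases lie under another gene's exons.

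**Figure D4:**
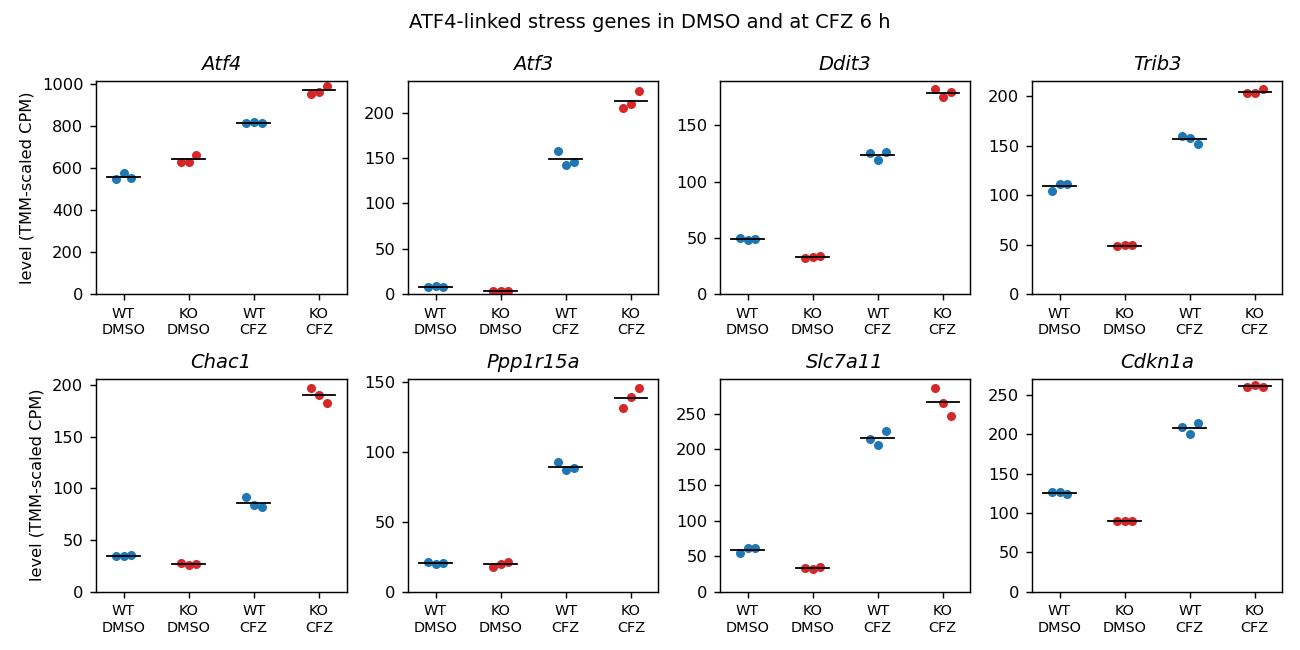
Levels of 8 stress genes in TMM-scaled CPM, with 1 point per library and a black line at the mean of 3, for WT (blue) and Nrf1-KO (red) in DMSO and at CFZ 6 h. Atf3, Ddit3, Trib3, Chac1, Slc7a11 and Cdkn1a are lower in Nrf1-KO in DMSO and higher under CFZ, and Atf4 is higher in both.

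Of 17 tested genes of amino acid synthesis and transport, 14 were higher, 0 were lower and 3 were not called, with a median of 0.20 beside -0.19 in DMSO. The contrast was more positive for 16 of the 17, beside 19.8% of all genes tested. Slc7a1, the cationic amino acid transporter, stood at 382, 370.3 and 384 CPM in the WT libraries and 580.4, 543 and 549 CPM in the Nrf1-KO libraries, a difference of 0.56 (SE 0.048, edgeR adjusted p = 9.74e-12). Psph, the last enzyme of serine synthesis, stood at 99.04, 94.2 and 95.3 CPM in the WT libraries and 135, 138 and 150 CPM in the Nrf1-KO libraries, a difference of 0.54 (SE 0.044, edgeR adjusted p = 2.74e-12). Both lie on chromosome 5, and without chromosomes 5, 15 and 16 the count was 11 higher of 14. Asns, asparagine synthetase, differed by 0.03 (SE 0.033, edgeR adjusted p = 0.438) under CFZ and by -0.37 (edgeR adjusted p = 2.91e-11) in DMSO. Of 20 aminoacyl-tRNA synthetase genes 4 were higher (20%) and 10 lower (50%), with a median of -0.11 beside -0.21 in DMSO, where 14 were lower. Their contrast was more positive for 12 and more negative for 4, beside 19.8% and 18.4% of all genes tested.
ATF4 binds TGATGNAA, in which the N is commonly C. That run was found in 5 of 19 windows of the PERK, ATF4 and CHOP axis (26.3%) and 4 of 19 windows of the amino acid list (21.1%), against 3.97% of all windows and 2.26% of the windows of genes tested. Both lists are of processes that ATF4 is known to drive, so these shares do not bear on the difference between the lines. Atf3 and Chac1, which had the largest contrasts of the axis along with Trib3, and Slc7a11, which holds 2 matches, are shown in the same way.
Atf3, chr1:191183284-191183583, strand -: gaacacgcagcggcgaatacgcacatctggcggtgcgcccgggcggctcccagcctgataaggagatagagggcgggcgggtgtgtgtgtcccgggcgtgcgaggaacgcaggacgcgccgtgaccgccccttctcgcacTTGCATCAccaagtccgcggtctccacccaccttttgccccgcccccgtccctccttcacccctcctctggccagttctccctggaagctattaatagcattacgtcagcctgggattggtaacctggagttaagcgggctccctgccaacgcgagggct
Chac1, chr2:119350992-119351291, strand +: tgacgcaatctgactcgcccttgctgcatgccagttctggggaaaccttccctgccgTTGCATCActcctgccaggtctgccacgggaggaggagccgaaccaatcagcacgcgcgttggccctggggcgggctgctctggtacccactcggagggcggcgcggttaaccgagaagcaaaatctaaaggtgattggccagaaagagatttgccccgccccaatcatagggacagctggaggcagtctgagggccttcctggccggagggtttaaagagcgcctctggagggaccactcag
Slc7a11, chr3:50443564-50443863, strand -: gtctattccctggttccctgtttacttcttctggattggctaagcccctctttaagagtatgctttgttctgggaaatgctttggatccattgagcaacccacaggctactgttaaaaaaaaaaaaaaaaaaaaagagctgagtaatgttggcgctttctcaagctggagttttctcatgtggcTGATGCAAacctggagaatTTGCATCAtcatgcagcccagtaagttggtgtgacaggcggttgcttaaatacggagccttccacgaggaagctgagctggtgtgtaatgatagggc

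In the other branches of the UPR called genes went both ways, as they did over all genes tested (30.5% higher and 30.8% lower). Of 16 IRE1 and XBP1 targets 4 were higher (25%) and 7 lower (43.8%). Of 17 ATF6 targets and ER chaperones 5 were higher and 5 lower (29.4% each), near the shares over all genes. The medians were -0.12 and 0.0092, in that order. With library size alone the first of these medians was -0.049. Hspa5 (BiP), the main ER chaperone, stood at 2215, 2238 and 2159 CPM in the WT libraries and 2013, 2010 and 2066 CPM in the Nrf1-KO libraries. It was slightly lower in Nrf1-KO, at -0.12 (SE 0.034, edgeR adjusted p = 0.00359), a call that was lost under upper-quartile scaling (adjusted p = 0.0837) and library size alone (adjusted p = 0.185), and the contrast was 0.011 (SE 0.049, edgeR adjusted p = 0.888). Herpud1, a component of ER-associated degradation, was higher, at 235, 242 and 237 CPM in the WT libraries and 287, 292 and 299 CPM in the Nrf1-KO libraries, a difference of 0.30 (SE 0.031, edgeR adjusted p = 1.13e-09). Dnajb9, an XBP1 target that restrains IRE1, was lower, at 22.1, 20.9 and 24.2 CPM in the WT libraries and 10.1, 10.97 and 9.83 CPM in the Nrf1-KO libraries, a difference of -1.11 (SE 0.1, edgeR adjusted p = 9.45e-11). Ern1, which encodes IRE1alpha, differed by 0.18 (SE 0.064, edgeR adjusted p = 0.0182) and Xbp1 by 0.071 (SE 0.036, edgeR adjusted p = 0.0833). Without the second WT library or the first Nrf1-KO library the call for Ern1 was lost (adjusted p = 0.115 and 0.189). Ero1lb, an ER oxidase, differed by 0.41 (SE 0.11, edgeR adjusted p = 0.00279), and without the first Nrf1-KO library its adjusted p was 0.0678.

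The cytosolic heat shock response refolds proteins outside the ER under the factor HSF1. Of 20 tested genes 15 were higher, 4 lower and 1 not called, with a median of 0.26. Hsph1, an HSP110 co-chaperone, stood at 2089, 2019 and 1909 CPM in the WT libraries and 4014, 3931 and 4040 CPM in the Nrf1-KO libraries. It was 1.99-fold higher, at 0.99 (SE 0.032, edgeR adjusted p = 2.71e-22), and it lies on chromosome 5 and was higher in DMSO too (0.76). Cryab, a small heat shock protein, stood at 587, 554 and 566 CPM in the WT libraries and 905, 924 and 995 CPM in the Nrf1-KO libraries, a difference of 0.73 (SE 0.038, edgeR adjusted p = 9.65e-17), with 17.0% of its exonic bases under a neighbour's exons. Hspa1b, an inducible HSP70, stood at 156, 158 and 155 CPM in the WT libraries and 248, 242 and 232 CPM in the Nrf1-KO libraries and differed by 0.62 (SE 0.04, edgeR adjusted p = 9.35e-15), but it is nearly identical to Hspa1a (0.66), so reads may be split between them. Hsf2, another heat shock factor, was lower, at 108, 108 and 104 CPM in the WT libraries and 49.4, 46.5 and 48.1 CPM in the Nrf1-KO libraries, a difference of -1.15 (SE 0.044, edgeR adjusted p = 1.75e-20). Its DMSO levels did not differ past the threshold (-0.09, edgeR adjusted p = 0.132). Without chromosomes 5, 15 and 16 the list had 13 higher and 3 lower of 17. Of 8 genes of the TRiC chaperonin 3 were higher and 3 lower (37.5% each), beside 30.5% and 30.8% over all genes tested. All 3 higher ones (Cct5, Cct6a and Cct8) lie on those chromosomes.

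Of 18 p53 targets, 14 were higher, 3 lower and 1 not called, with a median of 0.40 beside -0.033 in DMSO. The contrast was more positive for 13 and more negative for 0 of the 18, beside 19.8% and 18.4% of all genes tested. Trp53 itself was slightly lower, at -0.14 (SE 0.039, edgeR adjusted p = 0.0026). Cdkn1a, which encodes the cell cycle inhibitor p21, stood at 209, 200.2 and 214 CPM in the WT libraries and 260.3, 262 and 260.5 CPM in the Nrf1-KO libraries, a difference of 0.33 (SE 0.032, edgeR adjusted p = 1.81e-10), against -0.48 in DMSO. Eda2r, a death-domain receptor, stood at 70.5, 71.4 and 69.7 CPM in the WT libraries and 165, 151 and 153 CPM in the Nrf1-KO libraries, a difference of 1.15 (SE 0.041, edgeR adjusted p = 2.87e-21). Gdf15, a secreted stress factor, stood at 0.152, 0.51 and 0.301 CPM in the WT libraries and 1.39, 1.39 and 1.68 CPM in the Nrf1-KO libraries, which was the widest gap of the list but rests on few reads. Bbc3 (PUMA) did not differ past the threshold under CFZ (-0.077, SE 0.076, edgeR adjusted p = 0.39) but was lower in DMSO (-0.80).
Of 22 BCL2 family and caspase genes, 13 were higher (59.1%) and 6 lower (27.3%). Bcl2, which blocks apoptosis, stood at 8.42, 9.47 and 7.23 CPM in the WT libraries and 23.3, 22.5 and 23.5 CPM in the Nrf1-KO libraries, a difference of 1.46 (SE 0.099, edgeR adjusted p = 4.19e-14), and was higher in DMSO too (1.16). Bak1, which drives it, stood at 122, 128 and 124 CPM in the WT libraries and 62.7, 66.2 and 56.5 CPM in the Nrf1-KO libraries, a difference of -0.9995 (SE 0.048, edgeR adjusted p = 8.83e-18), with 25.5% of its exonic bases under a neighbour's exons. Of 20 mitosis genes 6 were higher and 6 lower (30% each), near the shares over all genes tested (30.5% and 30.8%). Of 20 DNA replication genes 12 were higher (60%) and 1 lower (5%). They were led by Tyms on chromosome 5 (0.70) and the cyclin gene Ccne1 (0.67), which were higher in DMSO too (0.59 and 0.82).

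Of 20 AP-1 and immediate early genes 11 were higher (55%) and 7 lower (35%), beside 30.5% and 30.8% over all genes tested. Egr2, a zinc-finger factor, stood at 2.20, 1.82 and 1.66 CPM in the WT libraries and 6.68, 6.33 and 5.88 CPM in the Nrf1-KO libraries, a difference of 1.74 (SE 0.16, edgeR adjusted p = 9.31e-11). Fosl1, a FOS relative, stood at 95.5, 89.4 and 91.3 CPM in the WT libraries and 58.9, 53.98 and 56.8 CPM in the Nrf1-KO libraries, a difference of -0.70 (SE 0.053, edgeR adjusted p = 6.22e-13), from the opposite order in DMSO (1.22), and 57.2% of its exonic bases lie under exons of Ccdc85b. Of 18 NF-kB and inflammatory genes 8 were higher (44.4%) and 7 lower (38.9%). Of 16 interferon-stimulated genes 3 were higher (18.8%) and 4 lower (25%), both under the shares over all genes tested. Cxcl5, a neutrophil chemokine on chromosome 5, stood at 9.02, 10.6 and 10.5 CPM in the WT libraries and 21.8, 24.2 and 22.8 CPM in the Nrf1-KO libraries, a difference of 1.19 (SE 0.089, edgeR adjusted p = 4.79e-13), with a wider gap in DMSO (2.49). Il33, an alarmin, had no read in WT and 19 reads over the Nrf1-KO libraries, at 0.22, 1.08 and 0.24 CPM, most of them in 1 library, which is at least 7.64-fold higher against a floor of 3 counts over the WT group. Cxcl10, an interferon-induced chemokine also on chromosome 5, differed by 1.74 (SE 0.13, edgeR adjusted p = 3.53e-13).

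Some matrix and contractile genes separated the lines with and without CFZ. Of 16 collagen genes 3 were higher (18.8%) and 8 lower (50%). Of 17 other matrix proteins 5 were higher (29.4%) and 8 lower (47.1%). Over all genes tested 30.5% were higher and 30.8% lower. Eln, which encodes elastin, stood at 299, 283 and 269.5 CPM in the WT libraries and 59.1, 62.8 and 56.4 CPM in the Nrf1-KO libraries, a difference of -2.25 (SE 0.056, edgeR adjusted p = 2.44e-25), which the DMSO comparison matched in size (-2.20). Spp1, osteopontin, stood at 162, 169 and 155 CPM in the WT libraries and 752, 777 and 832 CPM in the Nrf1-KO libraries, a difference of 2.28 (SE 0.051, edgeR adjusted p = 2.29e-26), with 2.13 in DMSO. Both lie on chromosome 5, where Eln goes against the direction of the chromosome as a whole. Mmp9, a gelatinase, stood at 4.85, 4.44 and 4.67 CPM in the WT libraries and 0.954, 0.618 and 0.839 CPM in the Nrf1-KO libraries, a difference of -2.52 (SE 0.25, edgeR adjusted p = 2.04e-10), with no difference past the threshold in DMSO (0.36, edgeR adjusted p = 0.681). Of 16 matrix proteases and inhibitors 9 were higher (56.2%) and 2 lower (12.5%).
Of 18 YAP and SRF targets, which report on tension and the actin skeleton, 16 were lower and 1 was higher, with a median of -0.41 beside -0.50 in DMSO. Acta2, smooth muscle actin, stood at 793, 799 and 791 CPM in the WT libraries and 348, 351 and 322 CPM in the Nrf1-KO libraries, a difference of -1.22 (SE 0.042, edgeR adjusted p = 1.55e-21). In DMSO it differed by -1.08, and the contrast was -0.14 (SE 0.059, edgeR adjusted p = 0.0657). Cnn1, calponin, stood at 4.47, 3.13 and 4.14 CPM in the WT libraries and 0.88, 1.16 and 1.08 CPM in the Nrf1-KO libraries, a difference of -1.91 (SE 0.23, edgeR adjusted p = 1.41e-08). Srf itself was the higher gene (0.18).

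Of 21 glycolysis and hypoxia genes 15 were lower and 4 higher, with a median of -0.35 beside -0.13 in DMSO. Slc2a1, the glucose transporter GLUT1, stood at 309, 305 and 303 CPM in the WT libraries and 161, 160 and 166 CPM in the Nrf1-KO libraries, a difference of -0.91 (SE 0.038, edgeR adjusted p = 2.02e-19). Gpi1 and Aldoa, enzymes of upper glycolysis, differed by -0.82 and -0.82, with contrasts of -0.54 (SE 0.044, edgeR adjusted p = 1.27e-11) and -0.61 (SE 0.046, edgeR adjusted p = 3.33e-12). Of 19 cholesterol synthesis genes 13 were higher and 0 lower, with a median of 0.15, and Insig1, which restrains the pathway and lies on chromosome 5, led them at 0.79 (SE 0.041, edgeR adjusted p = 4.66e-17). Without chromosomes 5, 15 and 16, 9 of 14 were higher. Of 22 ribosomal protein genes 18 were lower and 1 higher, with a small median of -0.23 that was -0.15 in DMSO. The higher one, Rpl8 on chromosome 15 (edgeR adjusted p = 0.0469), lost its call with no filter and with most of the single replicates left out.
For the remaining lists the shares stand beside 30.5% higher and 30.8% lower over all genes tested. Of 21 lysosome genes 5 were higher (23.8%) and 7 lower (33.3%), and of 10 nonsense-mediated decay factors 0 and 5 (50%). Of 10 BET and P-TEFb genes 3 were higher (30%) and 2 lower (20%), and of 4 metallothionein and zinc genes 1 (25%) and 2 (50%). The last counts rest on calls that did not hold throughout, as that for Mt1 (higher, at 0.16) was lost in 3 alternatives, that for Mt2 (lower, at -0.16) in 7 and that for Hexim1 (lower, at -0.14), an inhibitor of P-TEFb, in 6. For Mt2 73.5% of the exonic bases lie under another gene's exons.

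Outside the lists, the largest differences were of genes that separated the lines in DMSO as well, in the same direction for 19 of the 20 named, the exception being Calr3. Aim2, a sensor of cytosolic DNA, stood at 0.228, 0.218 and 0.151 CPM in the WT libraries and 18.1, 21.4 and 21.9 CPM in the Nrf1-KO libraries, and at 0.101, 0.118 and 0.0663 CPM in WT and 17.1, 18.3 and 18.7 CPM in Nrf1-KO in DMSO. Gpnmb, a lysosomal glycoprotein, stood at 1.74, 2.11 and 1.66 CPM in the WT libraries and 108, 111 and 113 CPM in the Nrf1-KO libraries. It was 59.8-fold higher in Nrf1-KO, at 5.90 (SE 0.09, edgeR adjusted p = 1.08e-30), and its contrast was 0.10 (SE 0.2, edgeR adjusted p = 0.772). The other 8 of the 10 highest were Mctp1, 1810011O10Rik, Scn3a, B230209E15Rik, Gm13544, Pi15, Etl4 and Dach2, with means from 5.85 to 14.5 CPM in Nrf1-KO and at most 0.3231 CPM in WT.
Rian, a noncoding RNA of an imprinted cluster, stood at 4.78, 6.04 and 6.48 CPM in WT and had no read in Nrf1-KO, which is at least 64.1-fold lower against a floor of 3 counts over the group. Wisp2, a secreted matricellular protein, stood at 56.8, 54.7 and 53.5 CPM in the WT libraries and 4.77, 3.78 and 3.84 CPM in the Nrf1-KO libraries, a difference of -3.72 (SE 0.092, edgeR adjusted p = 1.94e-25). Serpina3n, a secreted protease inhibitor, stood at 16.1, 17.6 and 14.3 CPM in the WT libraries and 0.0734, 0.0772 and 0.48 CPM in the Nrf1-KO libraries. Its neighbours Serpina3g, Serpina3h and Serpina3i were also among the 10 lowest, but they are close copies of each other and reads may be shared between them. Pdk4, a kinase that restrains pyruvate use, stood at 3.87, 4.15 and 3.84 CPM in the WT libraries and 0.22, 0.463 and 0.36 CPM in the Nrf1-KO libraries. Of genes near silent in 1 line (all libraries at 5 CPM or more in one and at 0.25 CPM or less in the other), 3 were expressed in Nrf1-KO alone and 2 in WT alone, and of these 2 and 1 met the same rule in DMSO. With limits of 2 and 0.1 CPM the numbers were 3 and 5.

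The contrast singles out genes whose difference under CFZ was not the one already present. Calr3, a calreticulin relative, had the most negative, at 18.2, 19.01 and 19.1 CPM in the WT libraries and 1.25, 2.08 and 1.80 CPM in the Nrf1-KO libraries. In DMSO it stood at 1.42, 1.48 and 1.33 CPM in WT and 2.04, 1.91 and 2.62 CPM in Nrf1-KO, so the WT level under CFZ stood apart from the other 3 groups, with a contrast of -4.15 (SE 0.25, edgeR adjusted p = 7.31e-15). Fam219a stood at 68.9, 66.99 and 71.02 CPM in the WT libraries and 7.63, 7.57 and 7.31 CPM in the Nrf1-KO libraries. It was 9.15-fold lower in Nrf1-KO, at -3.19 (SE 0.071, edgeR adjusted p = 2.06e-26), and its contrast was -2.46 (SE 0.13, edgeR adjusted p = 4.23e-16), with 15.6% of its exonic bases under exons on the other strand. Pfn2, an actin-binding profilin, stood at 142, 140.5 and 141 CPM in the WT libraries and 23.1, 22.9 and 21.2 CPM in the Nrf1-KO libraries, and at 41.5, 38.6 and 41.97 CPM in WT and 27.2, 26.03 and 27.5 CPM in Nrf1-KO in DMSO. Its contrast was -2.05 (SE 0.079, edgeR adjusted p = 1.93e-19). Sumf2, a sulfatase-modifying factor relative, stood at 86.4, 86.7 and 85.1 CPM in the WT libraries and 17.5, 20.6 and 23.7 CPM in the Nrf1-KO libraries, with a contrast of -2.12 (SE 0.081, edgeR adjusted p = 1.73e-19), although it lies on chromosome 5, and 23.6% of its exonic bases lie under exons of Phkg1. Arnt2, Mfsd6, BC028528 and Cd300lb completed the 8 most negative, with contrasts of -2.17, -2.33, -2.44 and -2.33, and 49.8% of the exonic bases of BC028528 lie under another gene's exons.
The window of Fam219a is shown because its match to TGACNNNGC lies at position -2 from the start, with the match in capitals. That of Calr3 holds a match at -186. Such matches were found in 14.4% of the windows of genes tested, and a match does not show that a factor binds there.
Fam219a, chr4:41569489-41569788, strand -: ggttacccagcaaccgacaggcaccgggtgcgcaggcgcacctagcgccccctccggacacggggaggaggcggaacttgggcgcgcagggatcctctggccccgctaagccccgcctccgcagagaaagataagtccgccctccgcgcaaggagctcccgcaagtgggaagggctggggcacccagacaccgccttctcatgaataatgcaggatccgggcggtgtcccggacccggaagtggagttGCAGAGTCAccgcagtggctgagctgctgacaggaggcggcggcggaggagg
Prickle1, a planar cell polarity protein, had the most positive contrast, at 8.11, 7.43 and 6.93 CPM in the WT libraries and 14.1, 16.1 and 15.7 CPM in the Nrf1-KO libraries under CFZ. In DMSO it stood at 8.11, 5.96 and 8.55 CPM in WT and 2.23, 1.97 and 2.16 CPM in Nrf1-KO, and the contrast was 2.85 (SE 0.18, edgeR adjusted p = 4.92e-14). Stbd1, which anchors glycogen, stood at 66.2, 65.97 and 63.3 CPM in the WT libraries and 97.3, 102.1 and 109 CPM in the Nrf1-KO libraries, with a contrast of 1.62 (SE 0.074, edgeR adjusted p = 1.23e-17). Stard5, a sterol carrier, stood at 33.4, 33.2 and 34.95 CPM in the WT libraries and 69.8, 76.3 and 78.8 CPM in the Nrf1-KO libraries, with a contrast of 1.58 (SE 0.083, edgeR adjusted p = 3.28e-16), and its exons overlap those of Il16 on the opposite strand. The others of the 8 were Atf3, Trib3 and Chac1, given above, with Rgag1 (1.61) and Wnk4 (1.53). Without the first Nrf1-KO library Wnk4 was no longer called higher under CFZ (adjusted p = 0.106).

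Genes of 3 chromosomes stood higher in Nrf1-KO as a whole. Of 755 tested genes on chromosome 5, 456 were higher (60.4%) and 73 lower, with a median log2 difference of 0.26. Chromosome 15 had 61.5% of 480 genes higher and a median of 0.26, and chromosome 16 had 56.2% of 381 genes higher and a median of 0.23. Over the 17 other chromosomes the share of higher genes ran from 15.9% to 32.3%, with chromosomes 14 and 19 the lowest (medians of -0.12 and -0.12). The pattern was seen in every Nrf1-KO library at CFZ 6 h, with medians over genes of at least 5 CPM from 0.2501 to 0.263 on chromosome 5, from 0.2331 to 0.2651 on chromosome 15 and from 0.2089 to 0.2276 on chromosome 16. It was present in DMSO as well, with medians of 0.24, 0.27 and 0.26. Without these chromosomes 2628 of 10146 genes were higher (25.9%) and 3448 lower (34%), a count chosen after the data were seen. The part of this pattern in the differences of single genes on these chromosomes was not tested.

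**Figure D5:**
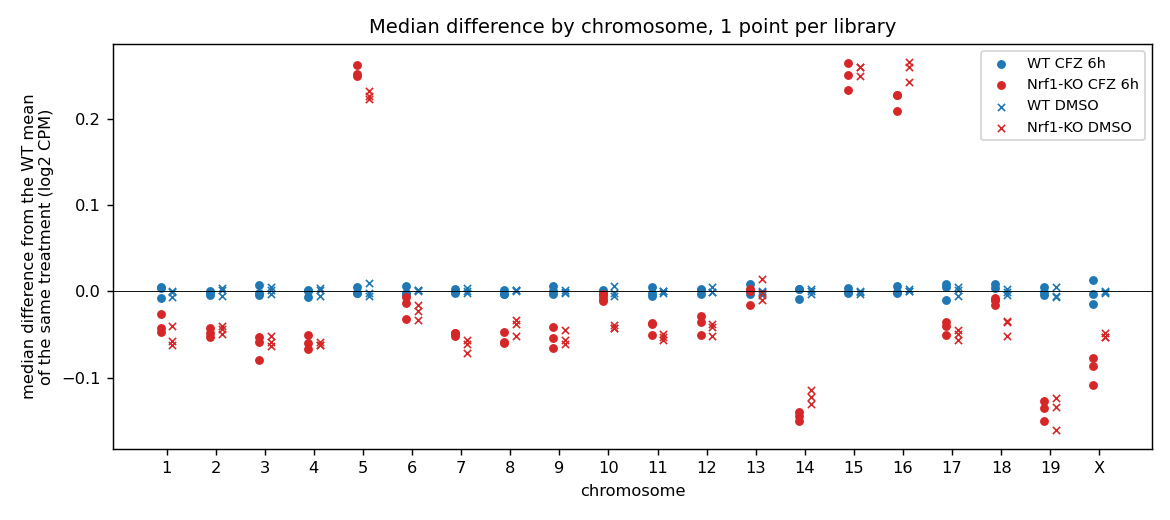
Median difference in log2 CPM from the WT mean of the same treatment, by chromosome, with 1 point per library, circles for CFZ 6 h and crosses for DMSO, WT in blue and Nrf1-KO in red. The Nrf1-KO libraries lie between 0.2089 and 0.2657 on chromosomes 5, 15 and 16.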

How the data were processed

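Stranded mRNA libraries of WT and Nrf1-KO NIH-3T3 cells were sequenced by the study. The authors deposited 1 table of read counts per gene and library, made with RNA Express per the study's methods, and the submitters' processing notes name STAR and DESeq2. Versions, the genome build, the annotation and the use of strand in counting are not given in the sources used here. The values are raw counts with no normalization, and 27 gene symbols in the table had been turned into dates and were left as they stand.
All 18 libraries, in 6 groups of 3, were fitted together in edgeR 4.0.16 (R 4.3.3, limma 3.58.1) with 1 mean per group. The groups at CFZ 24 h entered no comparison. They did help to set which genes were kept, the scaling and the estimate of the spread. A fit of only the groups compared tested 11187 genes at CFZ 6 h, against 11762 here. Genes were kept with filterByExpr at a minimum count of 10 and a minimum total of 15, libraries were scaled by TMM, and Benjamini-Hochberg adjusted p-values under 0.05 from the quasi-likelihood test were called. The contrast tested the line difference at CFZ 6 h minus that in DMSO in the same fit. Medians of chromosomes per library used log2(CPM + 0.5) over genes with a mean of at least 5 CPM. A fold against a line with no read used a floor of 3 counts over the group, and such floors cover counting error only. Coordinates and exon overlaps came from GENCODE M21 (GRCm38), matched by symbol.
The procedure was tested on simulated counts with 200 genes changed. Every gene was given the same biological coefficient of variation of 3.13%. The changed genes were not among those of lowest count, and no difference between the lines was set in DMSO. For the CFZ 6 h comparison edgeR ran on 11535 genes, recovered 97% of 2-fold changes and 90% of changes of 0.5 on the log2 scale, and called 4 unchanged genes. In the data 61.3% of genes were called, so these rates need not hold for them.
Named genes were Nfe2l1, the genes the study measured singly, the 2 highest and 2 lowest members of each list, the 10 highest and 10 lowest called genes outside the lists with a mean of at least 50 counts in the higher group and no overlap between the lines, and the 8 most positive and 8 most negative contrasts among genes with a mean of at least 50 counts. Other genes were named for their role or as exceptions, after their values were seen. Some genes that the rule named are not reported here. The members, lists and tests were chosen with earlier results of these data known. Alternatives were DESeq2 1.42.0, upper-quartile scaling, library size alone, no filter or a mean count of at least 10, a fit of only the groups compared, the replicate number as a block, a minimum fold of 2 and leaving out each replicate. Leaving out the genes of chromosomes 5, 15 and 16 was chosen after seeing the data.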

Additional observations from a re-analysis of the deposited data

Results flagged for a closer look

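The difference between Nrf1-KO and WT was not the same at CFZ 6 h and in DMSO for 4502 of the genes tested, by edgeR's test of the difference itself. The values that follow are the log2 difference at CFZ 6 h minus that in DMSO, each called at an edgeR adjusted p under 0.05.
The difference was more negative under CFZ for the proteasome genes Psma7 (-1.46), Psmb7 (-0.86), Psmc4 (-1.36) and Psmd12 (-1.48). It was more positive for Nfe2l1 (0.70) and for the stress genes Ppp1r15a (0.68), Ddit3 (1.10), Herpud1 (0.33), Atf3 (1.88) and Ern1 (0.45).
Of the genes with the most positive values, Prickle1 stood at 2.85, Stbd1 at 1.62, Rgag1 at 1.61, Stard5 at 1.58, Trib3 at 1.54, Wnk4 at 1.53 and Chac1 at 1.53. Prickle1 lies on chromosome 15 and Stbd1 on chromosome 5.
Of those with the most negative values, Calr3 stood at -4.15, Fam219a at -2.46, BC028528 at -2.44, Mfsd6 at -2.33, Cd300lb at -2.33, Arnt2 at -2.17, Sumf2 at -2.12 and Pfn2 at -2.05. No group had more than 3 libraries, so none was searched for a library far from the others.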

How the results depend on the processing

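With DESeq2, the other scalings, other filters, a fit of only the groups compared and the replicate number as a block, 6721 to 7321 genes were called at CFZ 6 h, 3916 to 4662 in the contrast and 5687 to 6515 in DMSO. Leaving out 1 replicate gave 6642 to 6834, 4075 to 4381 and 5765 to 6098. A minimum fold of 2 left 860, 327 and 584, since most called differences were smaller. Without the genes of chromosomes 5, 15 and 16, which was chosen after seeing the data, 6076 remained at CFZ 6 h.
No shared effect of the replicate number was seen, as the deviations of same-numbered WT and Nrf1-KO libraries at CFZ 6 h correlated at 0.0153, 0.00215 and -0.0494. The labels do not say whether same-numbered samples were handled together. With the number as a block 7321, 4650 and 6515 genes were called, and 99.6% of the main calls at CFZ 6 h were shared.
Over the named genes, 2282 log2 differences kept their direction and their side of the threshold, 52 lost the call, 25 gained it and 7 changed sign. The sign changed only for values near 0 or low counts. Slc3a2 went to 0.0214 when scaled by upper quartiles and 0.0403 by library size alone. Leaving out 1 replicate moved Cd68 between -0.7964 and 0.3037 and Mbp between -0.2273 and 0.1752. The contrast of Hspa5 was -0.0114 with no filter and ran from -0.0312 to 0.0359 with a replicate left out, and that of Ero1lb from -0.1847 to 0.1235. The median changed sign in some alternative for 4 lists, the ATF6 targets, lysosome, NF-kB genes and other matrix proteins. The cause was not tested. Genes of a few CPM, such as Il33, Gdf15 and Mgst1, are limited by depth.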

Other observations

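The letters TGACNNNGC, on either strand, were counted in the promoter windows of all genes tested by how their line difference moved under CFZ. They stood in 31 of 174 windows (17.8%) of genes with a contrast of -1 or lower that was called, and in 17.6% of 2075 windows of all genes called more negative. Among genes not called they stood in 13.9% of 6834 windows, among those called more positive in 13.0% of 2345, and among those with a called contrast of 1 or higher in 11 of 146 (7.53%). These shares are a description, and the base composition of the windows was not tested. The letters TGATGNAA ran the other way, at 1.64% of the windows of genes called more negative, 2.34% of those not called and 2.56% of those called more positive.
When the genes of chromosome 5 were divided by order into 4 blocks of like size, their medians were 0.25, 0.34, 0.24 and 0.23 at CFZ 6 h and 0.24, 0.25, 0.23 and 0.25 in DMSO. Chromosome 15 gave 0.34, 0.26, 0.23 and 0.26, and 0.36, 0.21, 0.25 and 0.26 in DMSO. Chromosome 16 was uneven, at 0.10, 0.12, 0.23 and 0.40, and 0.14, 0.15, 0.31 and 0.37 in DMSO. Chromosomes 14 and 19 had negative medians in every block.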
